A study of Mus musculus with 82 samples.

Results

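The genes described here are 9 genes of the MHC class I pathway, measured in naive CD4 T cells from a panel of inbred strains of mice. They are the class I heavy chain genes H2-Q4 and H2-M3, the light chain gene B2m, the peptide transport and loading genes Tap1, Tap2 and Tapbp, the immunoproteasome genes Psmb8 and Psmb9, and the transactivator gene Nlrc5. They are 9 of the 19752 gene symbols that stood alone on a probe set of the array, which had 24922 probe sets, 21425 of them with 1 symbol, 1399 with several and 2098 with none. Each gene had 1 probe set of its own except Nlrc5, which had 19, of which the one with the highest mean over the arrays was used. The rule used the symbols and no measured difference, although the 9 genes were chosen with earlier results of these data known.

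MHC class I molecules present peptides from inside the cell to CD8 T cells and are carried by nearly all nucleated cells, resting T cells included. Peptides are cut by the proteasome, in which Psmb8 and Psmb9 replace constitutive subunits, pumped into the endoplasmic reticulum by the Tap1 and Tap2 transporter, and loaded with the help of Tapbp (tapasin) onto a heavy chain paired with B2m. Nlrc5 acts on class I promoters together with factors of the RFX, CREB/ATF and NF-Y families and is itself induced by interferon.

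RNA came from splenic T cells sorted as CD3+CD4+CD62L+ after exclusion of cells with markers that included CD8, CD11c, CD25, CD49b, Gr1 and Ter119, each sample pooling 2 to 3 mice. All mice were male, untreated as far as the labels say, and labelled as 6 weeks old, while the series text gives a younger age. The 82 arrays fell into 40 groups, 38 with 2 arrays, C57BL/6J with 5 and SWR/J with 1. Strains of non-domesticus origin were MSM/Ms, JF1/Ms, CAST/EiJ and PWD/PHJ, and the other groups were 129S1/SvImJ, A/J, AKR/J, BALB/cByJ, BPL/1J, BTBR T+ tf/J, C3H/HeJ, C57BL/10J, C57BL/6J, C57BLKS/J, C57L/J, CBA/CaJ, CBA/J, CE/J, DDY/JclSidSeyFrkJ, FVB/NJ, KK.Cg-Ay/J, LGJ, LP/J, MA/MyJ, MRL/MpJ, NOD/ShiLtJ, NON/ShiLtJ, NOR/LtJ, NZB/BINJ, NZW/LacJ, P/J, PL/J, RIIIS/J, SEA/GnJ, SJL/J, SM/J, SWR/J, WSB/EiJ and 2 groups named after their titles. The C57BR-titled arrays carry a CBA/CaJ label and the DBA2-titled arrays a DBA/1LacJ label, so both were kept apart. Subspecies origins and H2 haplotypes are background knowledge on these strains, not labels.

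The T cell identity of the samples was checked on marker genes. The mean of the CD4 T cell list lay between 11.84 and 12.30 log2 units on the 82 arrays, and that of the B cell list had a median of 5.73 and reached 8.74 on PL/J replicate 2. That array was also the highest in the CD8, myeloid, neutrophil, erythroid and MHC class II lists. A/J replicate 2 stood apart as well, with 7.29 in the B cell list and 8.22 in the erythroid list, against 5.78 and 6.93 on A/J replicate 1. Array medians lay between 102.1 and 122.8 intensity units, except 141.8 on C57BL/6J replicate 5, which was also the highest in the dendritic cell list (7.01, median of all arrays 6.45). In RNA of a whole population, fewer cells of a type and less RNA per cell cannot be told apart. The array's probes are fixed and were not matched to each strain's sequence, and heavy chain genes resemble one another closely, so the part of probe mismatch and cross-hybridisation in any value below was not tested.

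Promoters are shown for the heavy chain gene that varied most between strains (H2-Q4), for the gene that varied least (B2m), and for H2-M3 and Tap1, whose strain means ran most closely together apart from the pair of Tap1 and Nlrc5. Capitals mark ATTGG, the CCAAT box bound by NF-Y as read on the opposite strand, and TGACG, the core of a CREB/ATF site, on either strand. The windows run from 250 bases before to 50 bases after the RefSeq start site in GRCm38.p6, at chr17:35379367-35379666 (+) for H2-Q4, chr17:37269984-37270283 (+) for H2-M3, chr2:122147437-122147736 (+) for B2m and chr17:34187306-34187605 (+) for Tap1.
H2-Q4: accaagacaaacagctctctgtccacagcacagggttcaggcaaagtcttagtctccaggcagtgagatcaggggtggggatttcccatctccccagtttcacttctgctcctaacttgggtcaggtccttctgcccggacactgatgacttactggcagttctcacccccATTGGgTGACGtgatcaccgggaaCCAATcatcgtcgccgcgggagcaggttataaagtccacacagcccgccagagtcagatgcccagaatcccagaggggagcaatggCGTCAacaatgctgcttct
H2-M3: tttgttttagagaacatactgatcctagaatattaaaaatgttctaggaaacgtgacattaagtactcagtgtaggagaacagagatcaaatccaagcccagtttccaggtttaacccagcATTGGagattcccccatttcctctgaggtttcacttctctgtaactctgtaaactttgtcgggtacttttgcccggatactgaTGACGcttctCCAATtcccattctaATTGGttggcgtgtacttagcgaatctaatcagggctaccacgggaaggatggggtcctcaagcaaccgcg
B2m: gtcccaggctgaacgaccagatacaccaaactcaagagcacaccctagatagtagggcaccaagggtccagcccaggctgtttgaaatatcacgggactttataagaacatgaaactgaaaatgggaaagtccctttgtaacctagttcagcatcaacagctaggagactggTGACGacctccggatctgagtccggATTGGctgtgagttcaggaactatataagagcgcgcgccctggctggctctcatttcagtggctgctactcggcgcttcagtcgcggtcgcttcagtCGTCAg
Tap1: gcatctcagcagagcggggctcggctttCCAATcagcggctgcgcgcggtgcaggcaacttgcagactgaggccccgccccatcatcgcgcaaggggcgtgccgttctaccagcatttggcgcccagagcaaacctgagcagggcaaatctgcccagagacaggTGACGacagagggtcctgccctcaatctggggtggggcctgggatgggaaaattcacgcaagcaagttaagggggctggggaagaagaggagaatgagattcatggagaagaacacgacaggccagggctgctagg

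Of the 9 genes, 7 had a promoter entry, and Tap2 and Nlrc5 are named only. ATTGG was found in 6 of the 7 windows, against 37.4% of the 32851 mouse promoters of the same table, and TGACG in 5 of 7, against 20.8%. Both were present in H2-Q4, H2-M3, B2m, Tap1 and Psmb9, 5 of 7 windows, against 7.73% of all promoters. The matches of the 2 motifs did not overlap one another in these windows, and in H2-Q4 a match of each lay 1 base apart. The Tapbp window held ATTGG alone, and the Psmb8 window held neither. GAANNGAAA, a core of interferon-stimulated elements, was found on either strand in H2-Q4 and H2-M3 (2 of 7, against 7.52%). Tap1 and Psmb9 are read from opposite strands with start sites 226 bases apart, and 275 bases of their windows are the same. Their ATTGG and TGACG matches are the same sites in this shared stretch. The counts of 6, 5 and 5 of 7 windows thus hold these sites 2 times, and the windows are not independent. Of the 9 genes 7 lie on chromosome 17, while B2m lies on chromosome 2 and Nlrc5 on chromosome 8.

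The first comparison asked how far each gene differed between strains relative to replicate arrays. All 9 genes differed, in a moderated F-test over 40 strains in limma with Benjamini-Hochberg adjustment over all probe sets, which 47.6% of all probe sets also passed. The SD of strain means ran from 0.08 log2 units in B2m to 1.24 in H2-Q4, with a median of 0.22 over the 9 genes, against 0.14 over all probe sets. By this SD, B2m lay at percentile 1.22 of all probe sets, H2-Q4 at percentile 99.8, and the other 7 genes between percentile 70.4 (Tapbp) and percentile 93.7 (Psmb9).

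H2-Q4, a heavy chain of the Qa region of the H2 complex, was the most variable (adjusted p = 3.70e-34, limma). It had intensities of 46.7 and 43.2 in JF1/Ms, 62.6 and 60.2 in MSM/Ms, and 118.6 and 233.0 in SJL/J, against 1488, 1451, 1667, 1405 and 1450 in C57BL/6J. Next came PWD/PHJ with 525 and 502 and RIIIS/J with 786 and 588, and the highest strain was CBA/J with 2202 and 2225. JF1/Ms, MSM/Ms and SJL/J therefore stood apart from the other 37 strains, and no array of these 3 reached any array of another strain. The strain means spanned 44.9 to 2213, a 49.3-fold range, with an intraclass correlation (the share of variance between strains) of 0.98 and a replicate SD of 0.17 log2 units. Whether the lowest values lie above background was not measured.

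**Figure D1:**
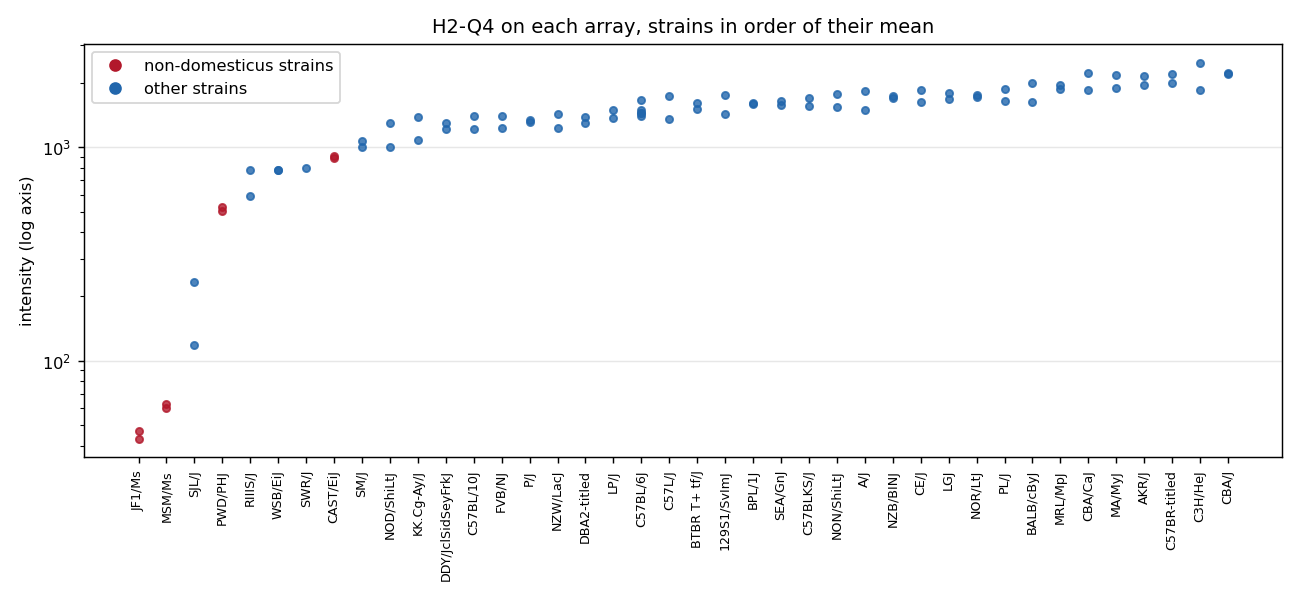
H2-Q4 intensity (log axis) on each of the 82 arrays, strains in order of their mean from left to right. Each point is 1 array. JF1/Ms, MSM/Ms and SJL/J lie at or below 233.0 and all other arrays at or above 502.

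Above these strains the H2-Q4 levels formed a gradual series. Of the 39 pairs of neighbouring strains in the order of the means, 7 had arrays that did not overlap. These were the steps from JF1/Ms to MSM/Ms, SJL/J, PWD/PHJ and RIIIS/J at the bottom, and those around WSB/EiJ, SWR/J, CAST/EiJ and SM/J. From SM/J, at 1039, to CBA/J no neighbouring strains were apart by their arrays.

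H2-M3, a nonclassical heavy chain that presents N-formylated peptides, had a far narrower range (adjusted p = 3.50e-08, limma). Its strain means lay between 431 in WSB/EiJ and 727 in MRL/MpJ, a 1.69-fold range around a median of 618. It had 431.1 and 431.0 in WSB/EiJ, 410 and 471 in MSM/Ms, and 721 and 734 in MRL/MpJ, against 610, 610, 593, 515 and 588 in C57BL/6J. The arrays of WSB/EiJ and MSM/Ms lay below all C57BL/6J arrays and those of MRL/MpJ above them. JF1/Ms, with 621 and 578, lay within and just above the C57BL/6J arrays, while its H2-Q4 signal was the lowest of all strains.

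B2m, the light chain shared by all class I molecules, was the brightest and the steadiest of the genes. Its strain means lay between 9680 in SWR/J, from 1 array, and 12454 in C57L/J, a 1.29-fold range. Whether values this bright lie near the upper limit of the array was not measured. The F-test passed narrowly (adjusted p = 0.0324, limma), and the call was lost when either PL/J array, either JF1/Ms array or C57L/J replicate 1 was left out, with an adjusted p of up to 0.0796. It was also lost when each array was centred on its median (adjusted p = 0.113, limma), with the B cell list as a covariate (0.0637), with 1 probe set per symbol (0.0524) and without PL/J replicate 2 and A/J replicate 2 together (0.0541). PL/J had 9905 and 9628, against 12286, 12008, 11792, 11696 and 12582 in C57BL/6J.

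The transporter subunit Tap1 was the most strain-bound of the processing genes, with an intraclass correlation of 0.912 (adjusted p = 1.31e-16, limma). It had 1019 and 1077 in WSB/EiJ, 1026 and 1168 in MSM/Ms, and 2392 and 2484 in BPL/1J, against 1800, 1917, 2085, 1725 and 2013 in C57BL/6J. WSB/EiJ and MSM/Ms lay below every other strain, and the range of strain means was 2.33-fold. Its partner Tap2 ranged from 381 in WSB/EiJ to 700 in MRL/MpJ, a 1.84-fold range (adjusted p = 3.11e-09, limma), and followed another order, with A/J the second highest at 694 (617 on replicate 1 and 780 on replicate 2), while its Tap1 was at rank 10 of 40 from the lowest, at 1559. Tapbp, which bridges the transporter and the heavy chain, ranged from 1526 in FVB/NJ to 2517 in BTBR T+ tf/J (adjusted p = 5.88e-06, limma), although the 2 BTBR T+ tf/J arrays were 2171 and 2920.

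The immunoproteasome gene Psmb8 ranged from 602 in WSB/EiJ to 1393 in MRL/MpJ (2.31-fold, adjusted p = 1.89e-06, limma). MRL/MpJ had 1299 and 1494, against 993, 799, 907, 794 and 883 in C57BL/6J, and its 2 arrays lay above those of every other strain. Psmb9 ranged from 394 in MSM/Ms to 1065 in MRL/MpJ (2.70-fold, adjusted p = 8.46e-10, limma). It had 342 and 453 in MSM/Ms, 417 and 413 in WSB/EiJ, and 1008 and 1124 in MRL/MpJ, against 663, 786, 818, 584 and 786 in C57BL/6J. The low and the high strains did not overlap C57BL/6J, but the arrays of one strain differed more than for any other of the 9 genes, with a replicate SD of 0.18 log2 units.

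Nlrc5, the transactivator of class I genes, ranged from 1193 in MSM/Ms to 3515 in PL/J (2.95-fold, adjusted p = 5.14e-14, limma). It had 1319 and 1079 in MSM/Ms, 1345 and 1489 in WSB/EiJ, and 3721 and 3320 in PL/J, against 2125, 2056, 2102, 2133 and 1968 in C57BL/6J. The higher PL/J value came from replicate 1, and replicate 2 is the array with the high B cell markers. The part of other cells in these values was not tested. All 19 probe sets of Nlrc5 passed the F-test, with a highest adjusted p of 4.29e-05 in limma.

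The order of strains was thus shared in part at the low end. WSB/EiJ was the lowest strain for H2-M3, Tap1, Tap2 and Psmb8 and the second lowest for Tapbp, Psmb9 and Nlrc5. MRL/MpJ was the highest for H2-M3, Tap2, Psmb8 and Psmb9. Neighbouring strains in the order mostly overlapped in their arrays, with 2 to 6 of 39 neighbouring pairs apart for the 8 genes other than H2-Q4.

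**Figure D2:**
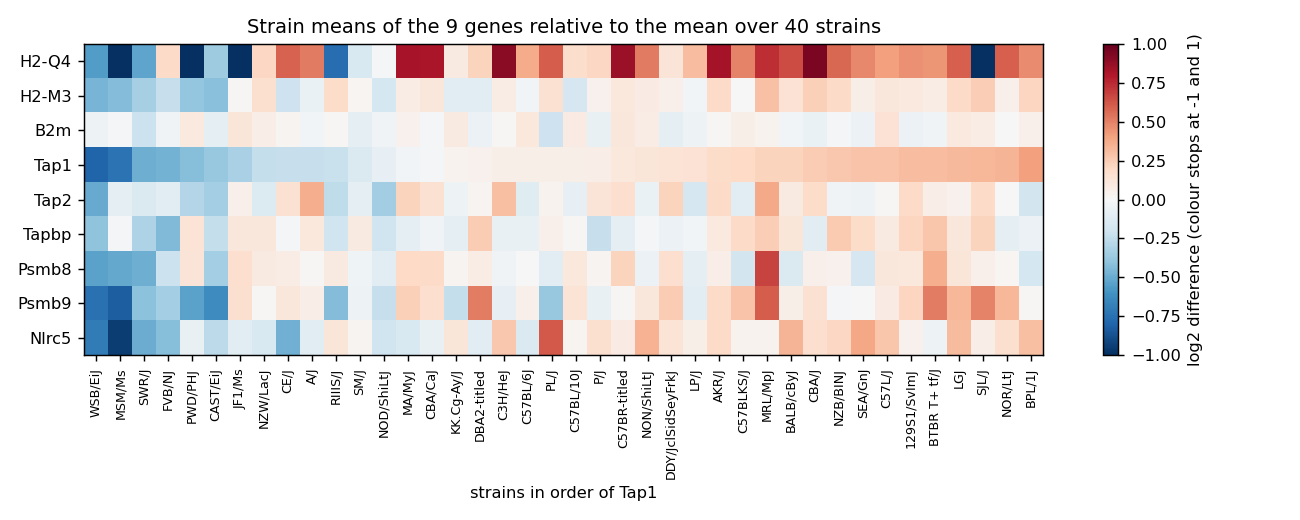
Log2 difference of each strain mean from the mean over 40 strains for the 9 genes (rows), with strains in order of Tap1 from left to right and colours that stop at -1 and 1. WSB/EiJ and MSM/Ms, at the left end, are low in most rows, and the B2m row is nearly even.

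The second comparison set each of 38 strains against C57BL/6J, the strain of the reference genome. These contrasts share the 5 C57BL/6J arrays, so they are not independent of one another, and SWR/J with 1 array was left out. Of 342 pairs of gene and strain, 39 were lower (11.4%, against 5.21% of all pairs of probe set and strain) and 38 higher (11.1%, against 2.31%) at an adjusted p below 0.05 in limma. No gene passed in 8 strains, which were C57BL/10J, C57BLKS/J, the C57BR-titled group, CBA/CaJ, KK.Cg-Ay/J, LP/J, NOD/ShiLtJ and P/J. At least 5 of the 9 genes passed in 5 strains. Without C57BL/6J replicate 5, the array with the highest median, 74 of the pairs passed in place of 77, and with each array centred on its median 52 passed.

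Directions differed between genes. Tap1 was lower than in C57BL/6J in 10 strains and higher in 4, Psmb9 lower in 6 and higher in 4, and H2-Q4 lower in 8 and higher in 3. Tap2 was higher in 9 strains and lower in WSB/EiJ alone, Nlrc5 higher in 10 and lower in MSM/Ms, WSB/EiJ and CE/J, and Tapbp higher in 5 and lower in 2. H2-M3 was lower in 4 and higher in 1, Psmb8 lower in 3 and higher in 2, and B2m lower in PL/J and CAST/EiJ.

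WSB/EiJ, a wild-derived strain of domesticus origin, was lower in 8 of the 9 genes, all but B2m (5.24% of all probe sets were lower in this contrast). The log2 difference from C57BL/6J was -0.93 ± 0.14 (SE) for H2-Q4, -0.86 ± 0.09 for Tap1, -0.80 ± 0.14 for Psmb9 and -0.55 ± 0.10 for Nlrc5, with adjusted p between 2.76e-11 and 5.61e-05 in limma. Psmb8 fell by 0.53 ± 0.12, H2-M3 by 0.43 ± 0.09, Tap2 by 0.38 ± 0.09 and Tapbp by 0.33 ± 0.10. The calls of Tap2 and Tapbp were lost in limma when WSB/EiJ replicate 1 was left out, and that of Tapbp also without WSB/EiJ replicate 2 or C57BL/6J replicate 3. Both were lost as well when each array was centred on its median (adjusted p = 0.0503 for Tap2 and 0.229 for Tapbp, limma). B2m had 10715 and 11036 in WSB/EiJ, below the lowest C57BL/6J array at 11696, and did not pass the test.

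MSM/Ms was lower in 6 genes (8.95% of all probe sets were lower), namely H2-Q4, H2-M3, Tap1, Psmb8, Psmb9 and Nlrc5. The largest were H2-Q4 at -4.60 ± 0.14, Psmb9 at -0.87 ± 0.14, Nlrc5 at -0.80 ± 0.10 and Tap1 at -0.80 ± 0.09 (log2, SE). Tap2, with 484 and 528, and Tapbp, with 1892 and 2209, overlapped the C57BL/6J arrays, in which Tap2 lay between 473 and 520 and Tapbp between 1754 and 2162. The H2-M3 and Psmb8 calls were lost without MSM/Ms replicate 1.

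CAST/EiJ was also lower in 6 genes (13.6% of all probe sets were lower), with B2m at -0.19 ± 0.07 (log2, SE) in place of Nlrc5. H2-Q4 was lower by 0.73 ± 0.14, so that this strain kept 910 and 892 intensity units, against 43.2 to 62.6 in JF1/Ms and MSM/Ms. The calls of B2m, Psmb8 and H2-M3 in CAST/EiJ were lost when its replicate 2 was left out, B2m also without its replicate 3 or C57BL/6J replicate 1 or 2, and Psmb8 also without C57BL/6J replicate 1 or 3. After quantile normalization H2-M3 (-0.19, adjusted p = 0.144, limma) and Psmb8 (-0.17, adjusted p = 0.409) did not pass.

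MRL/MpJ, a strain prone to systemic autoimmunity, was higher in 5 genes (3.56% of all probe sets were higher). Psmb8 differed by 0.68 ± 0.12, Psmb9 by 0.56 ± 0.14, Tap2 by 0.50 ± 0.09, H2-M3 by 0.32 ± 0.09 and Tapbp by 0.31 ± 0.10 (log2, SE, adjusted p between 4.30e-05 and 0.0278 in limma). Tap1 (0.17 ± 0.09), Nlrc5 (0.18 ± 0.10) and H2-Q4 (0.37 ± 0.14) did not pass. The Psmb9, H2-M3 and Tapbp calls were lost without MRL/MpJ replicate 2, Tapbp also without replicate 1 or C57BL/6J replicate 4. With each array centred on its median, H2-M3 (adjusted p = 0.0583, limma) and Tapbp (0.0869) did not pass.

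In SJL/J, H2-Q4 was low while 4 of the 5 processing genes were high. H2-Q4 was lower by 3.16 ± 0.14 (log2, SE, 8.44% of all probe sets were lower), while Psmb9 (0.45 ± 0.14), Tap2 (0.31 ± 0.09), Tapbp (0.30 ± 0.10) and Tap1 (0.27 ± 0.09) were higher (2.17% of all probe sets were higher). The 2 SJL/J arrays had 2232 and 2376 for Tap1 and 612 and 616 for Tap2, all above the highest C57BL/6J arrays at 2085 and 520. Psmb8 (0.05 ± 0.12) and the other heavy chain H2-M3 (0.27 ± 0.09, adjusted p = 0.0530, limma), second highest of all strains at 703, did not pass. Each of the 4 higher calls was lost without either SJL/J array, Tap1 and Psmb9 also without C57BL/6J replicate 1 or 4, and Tapbp also without C57BL/6J replicate 1, 2, 4 or 5, and the H2-Q4 call was not lost. The 4 higher calls were also lost with each array centred on its median, with adjusted p between 0.0878 and 0.193 in limma.

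**Figure D3:**
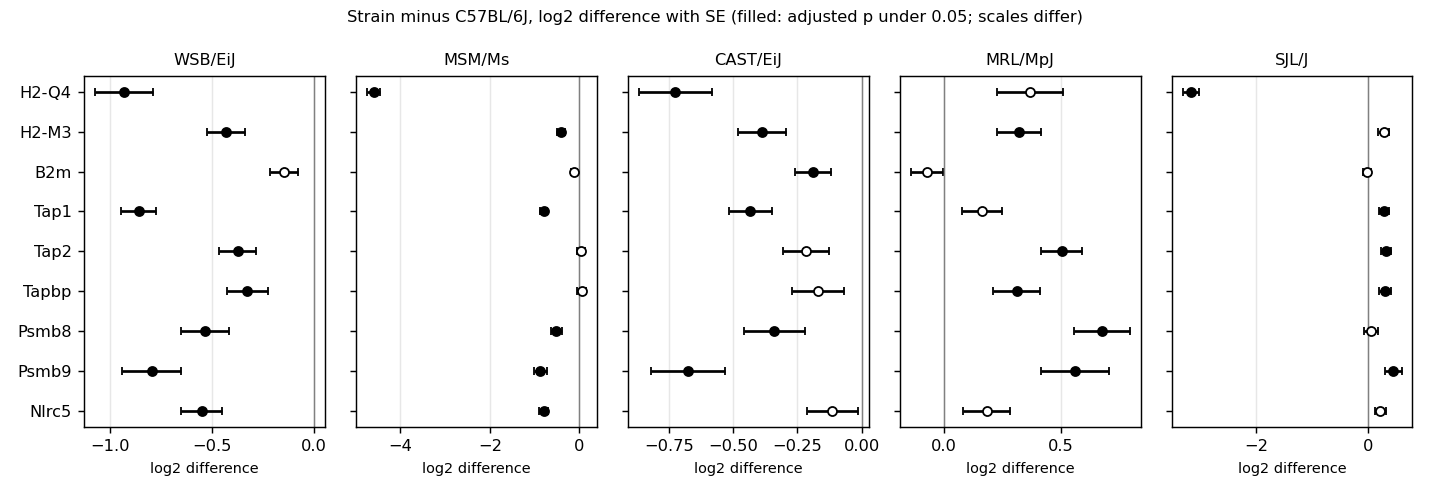
Log2 difference from C57BL/6J with its SE for the 9 genes in the 5 strains with 5 or more genes past the threshold, filled points marking an adjusted p below 0.05. Horizontal scales differ between panels. WSB/EiJ, MSM/Ms and CAST/EiJ lie left of 0 where they passed, MRL/MpJ right of 0, and SJL/J has H2-Q4 far left and 4 genes to the right.

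The third comparison set the 4 non-domesticus strains against the other 36, with the strain as the replicate. H2-Q4, Tap1, Psmb9 and H2-M3 were lower in these strains, 4 of the 9 genes, where 3.77% of all probe sets were lower. No gene was higher (4.96% of all probe sets), and none was higher at an unadjusted p below 0.05 in limma. H2-Q4 had strain means of 44.9, 61.4, 513 and 901 in the 4 strains, against 166 to 2213 with a median of 1589 in the others, a difference of -2.90 ± 0.44 (log2, SE, adjusted p = 6.42e-06, limma). SJL/J was the one other strain below 513.

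Tap1 had strain means of 1095, 1359, 1410 and 1458, against 1048 to 2437 with a median of 1946 in the others, a difference of -0.52 ± 0.13 (adjusted p = 0.00702, limma). Psmb9 had 394, 451, 482 and 780, against 415 to 1065 with a median of 730 (-0.51 ± 0.15, adjusted p = 0.0276, limma). H2-M3 had 439, 445, 455 and 599, against 431 to 727 with a median of 624.8 (-0.34 ± 0.09, adjusted p = 0.00917, limma). Other strains lay as low for each of these 3 genes. WSB/EiJ was below all 4 non-domesticus strains in Tap1 and H2-M3 and below 3 of them in Psmb9, and SWR/J (1303) and FVB/NJ (1316) were below 3 of them in Tap1. For Psmb9 and H2-M3 JF1/Ms lay near the middle of the other strains.

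**Figure D4:**
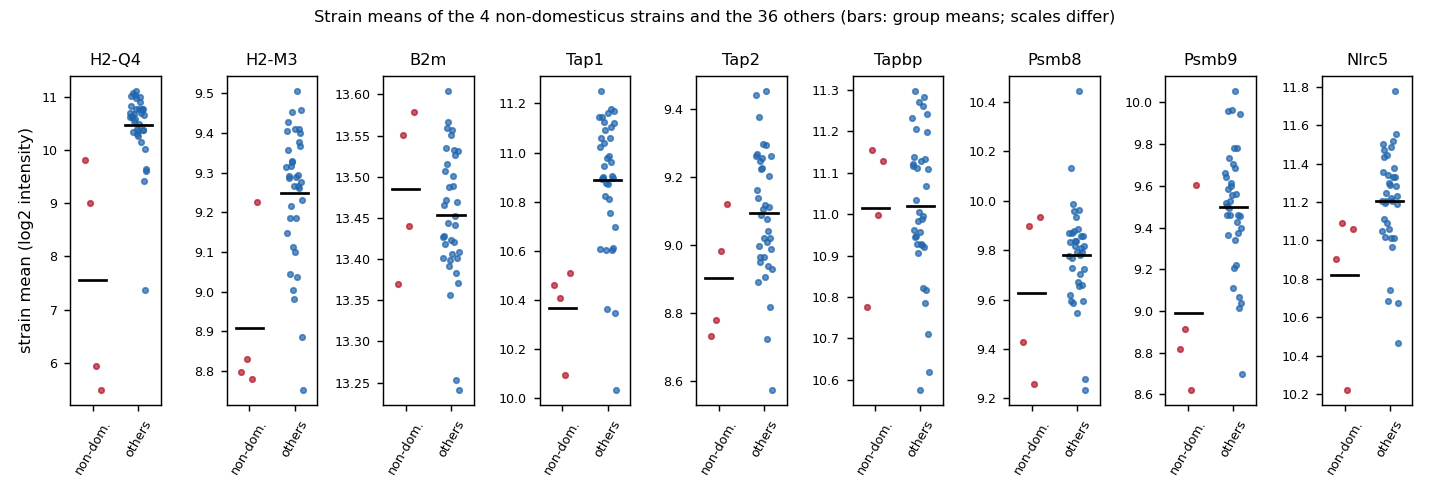
Strain means (log2 intensity) of the 9 genes in the 4 non-domesticus strains (left in each panel) and the 36 others (right). Points are strains, bars are group means, and vertical scales differ. H2-Q4, H2-M3, Tap1 and Psmb9 are lower on the left, with overlap in each panel.

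Nlrc5 differed by -0.39 ± 0.14 and did not pass (adjusted p = 0.0921, limma), and of its 19 probe sets 17 were negative and 2 passed. Tap2 (-0.19 ± 0.10), Psmb8 (-0.15 ± 0.11), B2m (0.03 ± 0.05) and Tapbp (-0.004 ± 0.09) did not pass either. The count rested on single strains. It was 1 to 5 when each strain was left out in turn, H2-M3 and Psmb9 were lost without CAST/EiJ, MSM/Ms or PWD/PHJ, and Tap1 without MSM/Ms (adjusted p = 0.0887, limma), while H2-Q4 passed each time with differences between -3.65 and -2.21.

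Few other genes of the pathway passed by origin, where 3.77% of all probe sets were lower and 4.96% higher. Of 10 measured genes of peptide trimming and loading in the endoplasmic reticulum, Pdia4 was lower (-0.33 ± 0.09) and Canx (0.23 ± 0.07) and Uggt1 (0.31 ± 0.10) were higher. Of 9 proteasome partners, the activator subunit Psme2 was lower (-0.43 ± 0.10), and of 15 measured promoter factors Rela, an NF-kB subunit, was lower (-0.47 ± 0.07). Of 11 further 20S proteasome subunits 1 was lower and 1 higher, and of 8 cytosolic peptidases 1 was higher. Of 17 other measured class I heavy chains of the H2 complex none passed in either direction. Those with a mean signal above the median of all values (6.82 log2 units) all had negative differences. They were H2-T10 (-0.90 ± 0.31, adjusted p = 0.0575, limma), H2-Q5 (-0.61 ± 0.33), H2-T24 (-0.37 ± 0.19) and H2-Q2 (-0.16 ± 0.10). The rest lay below that median, and no measure of background was used here. Of 8 class I-like genes outside the H2 complex Cd1d1, which presents lipids to natural killer T cells, was lower (-1.43 ± 0.10). The median difference of the 9 genes was -0.34, against 0.02 over all probe sets.

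Some markers of cell types passed by origin as well, where 3.77% of all probe sets were lower and 4.96% higher. Of 6 measured regulatory T cell markers, Gpr83 (-2.79 ± 0.23) and Izumo1r (-2.90 ± 0.15) were lower, while the other 4, between -0.57 (Foxp3) and 0.26 (Ikzf2), did not pass. Lower were also Cd3d (-0.48 ± 0.11) and Cd3g (-0.51 ± 0.14) of 7 markers of the sorted CD4 T cells and Cd8b1 (-0.997 ± 0.17) of 2 CD8 markers. Of 4 measured erythroid markers 1 was lower, and of 8 myeloid markers Lyz2 (2.91 ± 0.50) was higher. The mean of the regulatory T cell list lay between 7.18 and 8.11 log2 units in the 4 non-domesticus strains, against 8.15 to 9.47 in the others, so the groups did not overlap in this mean, to which Gpr83 and Izumo1r contributed most of the difference. That of the myeloid list lay between 6.07 and 6.75, against 5.92 to 6.71, and that of the CD4 T cell list between 11.92 and 12.05, against 11.88 to 12.28. Over the 37 strains without JF1/Ms, MSM/Ms and SJL/J, H2-Q4 had r = 0.45 with the mean of the regulatory T cell list, and over all 40 strains r = 0.71. With the mean of the myeloid list it had r = -0.17 over the 37 strains and -0.54 over all 40. The part of cell composition in the differences was not tested.

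The fourth comparison asked about the H2 haplotype, since most of the genes lie in the H2 complex. H2-Q4 was higher in the 7 H2k strains than in the 6 H2b strains, 1 of the 9 genes, where 0.156% of all probe sets passed in either direction. Its strain means were 1739 in CE/J, 1925 in MRL/MpJ, 2028 in CBA/CaJ, 2035 in MA/MyJ, 2057 in AKR/J, 2154 in C3H/HeJ and 2213 in CBA/J, against 1301 in C57BL/10J, 1428 in LP/J, 1490 in C57BL/6J, 1534 in C57L/J, 1567 in BTBR T+ tf/J and 1579 in 129S1/SvImJ. The strain means of the haplotypes did not overlap, although the lowest H2k array (1629) lay below the highest H2b array (1750). The difference was 0.45 ± 0.07 (log2, SE, adjusted p = 0.00786, limma) and stayed between 0.41 and 0.48 when each strain was left out in turn.

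The other 8 genes did not pass between these haplotypes. Tap2, with H2k means of 598 to 700 against H2b means of 479 to 614, came closest (0.24 ± 0.07, adjusted p = 0.314, limma). The remaining differences lay between -0.13 in Tap1 and 0.10 in H2-M3. Strains of one haplotype are related beyond the H2 complex, so haplotype and shared descent cannot be told apart here.

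C57BLKS/J carries the H2d haplotype on a genome that is largely that of C57BL strains, and it was set against C57BL/6J, of H2b. None of the 9 genes passed in limma (1.67% of all probe sets did in either direction), and 1 of them, Tapbp, had an unadjusted p below 0.05, with a difference of 0.26 ± 0.10 (log2, SE). H2-Q4 had 1699 and 1563 in C57BLKS/J, against 1405 to 1667 in C57BL/6J, a difference of 0.13 ± 0.14. Of the 17 other heavy chains H2-Q5 was higher (0.88 ± 0.16, adjusted p = 0.000232, limma). Of the proteasome partners Psmb10, the other inducible catalytic subunit, was higher (0.62 ± 0.16), while Psmb7, the constitutive subunit it replaces, had -0.08 ± 0.10 and did not pass. Psmb6, which Psmb9 replaces, was lower (-0.67 ± 0.14), and of the promoter factors Rfxank was lower (-0.53 ± 0.09).

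Strains of one haplotype did not always have like values in these genes. NOD/ShiLtJ and NOR/LtJ, both of H2g7, had H2-Q4 at 1001 and 1301 in NOD/ShiLtJ and 1767 and 1723 in NOR/LtJ, and Tap1 at 1603 and 1856 in NOD/ShiLtJ and 2391 and 2246 in NOR/LtJ. Their arrays did not overlap for either gene. The other genes of the 9 except B2m were also apart and lower in NOD/ShiLtJ, such as Psmb9 (624 and 570, against 903 and 858 in NOR/LtJ). B2m overlapped. This pair was not tested, and how many of all probe sets are apart in it was not counted. With 2 arrays a strain, arrays can be apart by chance. SWR/J and FVB/NJ, both of H2q, were low in Tap1 (1303 and 1316 as strain means) and in Tapbp (1677 and 1526).

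The last comparison set the processing genes against the heavy chains H2-Q4 and H2-M3 over strains. The classical heavy chains H2-K1 and H2-D1 were not part of it. Pearson's r and Spearman's rho were computed for all 36 pairs of the 9 genes over 40 strain means, with permutation p adjusted over the pairs, and 24 pairs passed for r and 21 for rho. Strains share ancestry, which the permutation test does not take into account. The share of arbitrary gene pairs that would pass was not computed, so these counts have no background beside them. Among 9799 symbols, Psmb9 was most like Rnf114 (r = 0.82) and Psmb8 most like Tomm20 (r = 0.73), neither of them among the 9 genes. All 10 pairs among Tap1, Tap2, Tapbp, Psmb8 and Psmb9 passed for r (0.42 to 0.75), and 8 of them for rho.

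H2-M3 varied together with all 5 processing genes. Its r was 0.80 with Tap1 (rho = 0.68), 0.68 with Psmb9 (rho = 0.46), 0.61 with Psmb8 (rho = 0.41), 0.57 with Tap2 (rho = 0.47) and 0.48 with Tapbp (rho = 0.35), all past the threshold for both coefficients. For Tap1 the two-sided permutation p was 1e-05, the smallest that 100000 permutations can give (adjusted p = 6e-05). Without WSB/EiJ and MSM/Ms, the strains farthest from the median, r with Tap1 was 0.71.

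Nlrc5 ran with Tap1 and H2-M3 rather than with every processing gene. Its r was 0.80 with Tap1 (rho = 0.74) and 0.76 with H2-M3 (rho = 0.67), both with a permutation p of at most 2e-05, and 0.70 and 0.65 without the 2 farthest strains. With Psmb9 it was 0.44 (rho = 0.21, adjusted permutation p = 0.239 for rho) and 0.14 without MSM/Ms and WSB/EiJ, so that this relation rested on those strains. Its relations with Psmb8 and Tapbp passed for r (0.40 and 0.39) but not for rho (0.09 and 0.24). With Tap2 it was 0.32 (adjusted permutation p = 0.0593). Over the 19 Nlrc5 probe sets, r with Tap1 lay between 0.58 and 0.90 with a median of 0.78.

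**Figure D5:**
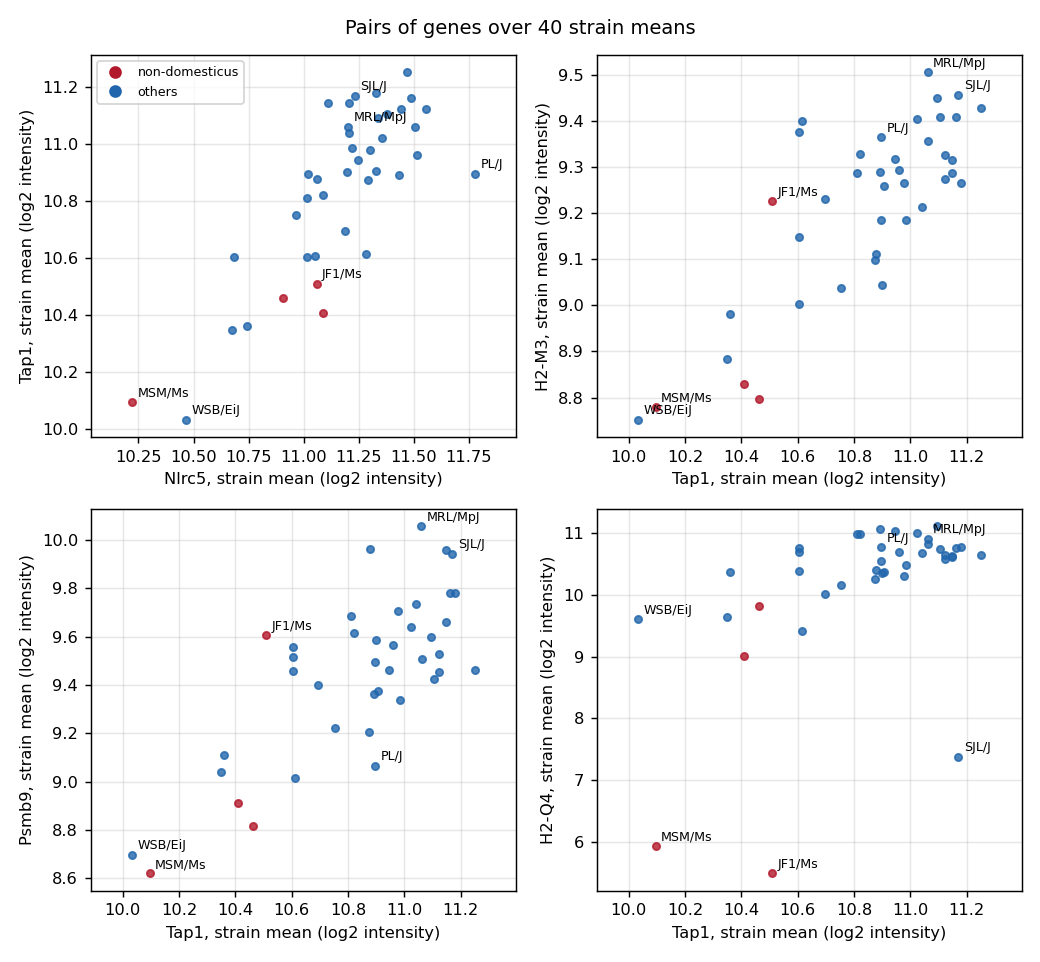
Strain means (log2 intensity) of 4 pairs of genes, 1 point per strain, with non-domesticus strains in red and the others in blue. Tap1 rises with Nlrc5 (r = 0.80), and H2-M3 (r = 0.80) and Psmb9 (r = 0.75) rise with Tap1, while JF1/Ms, MSM/Ms and SJL/J lie far below the other strains in H2-Q4.

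H2-Q4 fell into separate clusters, so its relations are given over the 37 strains without JF1/Ms, MSM/Ms and SJL/J, a choice made after its values were seen. Its r was 0.73 with Tap2 (rho = 0.73), 0.68 with Tap1 (rho = 0.50), 0.68 with Psmb9 (rho = 0.54), 0.67 with H2-M3 (rho = 0.63) and 0.38 with Psmb8 (rho = 0.27), each past the threshold for r by permutation and all but Psmb8 for rho. With Tapbp it was 0.34 and did not pass (adjusted permutation p = 0.0549). Over all 40 strains, which pools the clusters, 1 of the 5 processing genes passed in place of 4, namely Tap1 (r = 0.50), while Tap2 (r = 0.23, adjusted permutation p = 0.184), Psmb9 (r = 0.31, adjusted permutation p = 0.0658), Psmb8 (r = 0.25) and Tapbp (r = -0.009) did not, and H2-M3 had r = 0.35 and passed. Without the 4 non-domesticus strains but with SJL/J, Tap1 (r = 0.23) and H2-M3 (r = 0.17) did not pass. In SJL/J, left out of the 37 strains, the lowest H2-Q4 among the 36 strains outside the non-domesticus group went with the third highest Tap1 and the fourth highest Psmb9 of all strains.

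B2m passed with 1 of the 5 processing genes, Psmb8 (r = 0.40, rho = 0.39, adjusted permutation p = 0.0179 for r), and r was 0.29 without SWR/J and PL/J. This call was lost after quantile normalization (r = 0.13), without PL/J replicate 2 and A/J replicate 2 (r = 0.33) and without the 4 non-domesticus strains (r = 0.37). With Tap1 its r was 0.19 and with Tap2 0.05. Psmb8 and Psmb9 had r = 0.72 (rho = 0.59), Tap1 and Psmb9, which share a promoter region, r = 0.75 (rho = 0.61), and Tap1 and Tap2, the subunits of the transporter, r = 0.47 (rho = 0.37), each past the threshold by permutation.

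Differences between the 2 arrays of one strain showed another pattern, given here as a description over 38 strains. Tapbp and Psmb9 deviated together (r = 0.54) and Psmb9 and Nlrc5 in opposite directions (r = -0.67), while Tap1 and Nlrc5 had r = 0.33 and Tap1 and H2-M3 r = 0.35. Beside the strain means, the mean of 9 measured interferon response genes had r between 0.31 for Tap2 and 0.58 for Psmb8 over 40 strains for the 8 genes other than H2-Q4, while for H2-Q4 it was 0.15 over 40 strains and 0.41 over the 37 strains. The part of interferon-driven differences in the pairs was not tested.

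Among 9799 gene symbols with signals above the median, the strain pattern of Tap1 was most like those of Nlrc5, H2-M3 and Gm12250 (r = 0.77), and that of H2-M3 most like those of Tap1, Nlrc5 and Gm12250 (r = 0.72). Nlrc5 was most like Tap1, Il15ra (r = 0.79), a chain of the interleukin-15 receptor, and Parp14 (r = 0.78). Tapbp was most like Psmb10 (r = 0.72), Adar (r = 0.70) and Pml (r = 0.69), of which Adar encodes an RNA-editing enzyme. Tap2 was most like Psmb9 (r = 0.66), Tbca and Ndufa6, Psmb9 like Rnf114 (r = 0.82), Tbxa2r and Rpl19, Psmb8 like Tomm20 (r = 0.73), Them6 and Grcc10, and B2m like Parp3 (r = 0.62), Trim30a and Rsl1. For H2-Q4 the likest symbols over 40 strains, Tmem63a, Cd2 and Ugcg, dropped to r between 0.20 and 0.36 over the 37 strains. These are ranks over strain means and carry no test.

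The other genes of the pathway also differed between strains, beside the 47.6% of all probe sets that passed the F-test. All 10 measured genes of trimming and loading in the endoplasmic reticulum passed, as did 7 of 9 proteasome partners, 11 of 11 further 20S proteasome subunits, 12 of 15 promoter factors and 5 of 8 cytosolic peptidases. Psmb10 ranged from 434 in WSB/EiJ to 1417 in MRL/MpJ, the same ends as Psmb8. Of the 17 other heavy chains of the H2 complex 6 passed, and the widest were H2-Q5, from 549 in DDY/JclSidSeyFrkJ to 3012 in NZB/BINJ, and H2-T10, from 117 in WSB/EiJ to 1065 in BTBR T+ tf/J. A further 13 of the 30 listed heavy chains had no probe set with their symbol alone and were not used here. The classical heavy chains H2-K1 and H2-D1 were not among the heavy chains measured.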

How the data were processed

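Naive CD4 T cell RNA of 40 strain groups was measured on 82 Affymetrix ST1.0 arrays. Per the submitters' processing notes, the authors used Affymetrix Power Tools and RMA, with versions not given in the sources used here. Deposited values are normalized linear intensities, 1 per probe set and array, and were taken to log2 with no filter. Symbols came from the platform annotation, and promoter sequences from RefSeq (GRCm38.p6). Arrays were grouped by title and strain label.

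Tests used limma 3.58.1 in R 4.3.3. One model of all arrays (42 residual degrees of freedom) gave the F-test over strains and the contrasts with C57BL/6J. Models of strain means gave the comparisons by origin and haplotype. Each was adjusted by Benjamini-Hochberg over 24922 probe sets at 0.05. The F-test, the C57BLKS/J contrast and the comparison by origin were also tested on simulated data, and the comparison between haplotypes was not. Correlations used 100000 permutations in Python 3.11.15. The number of arrays, mostly 2 pooled samples a strain, limits the precision.

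The 9 genes, the other lists, the strain sets and the tests were chosen with earlier results of these data known. All 9 genes are named, with the 3 likest symbols of each and, from other lists, genes past the threshold with the largest differences or SD. Alternatives covered normalization, a log offset, filters, the prior, left-out arrays and strains, the replicate number as a block and a B cell covariate. One sort marker and one motif are not reported here.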

Additional observations from a re-analysis of the deposited data

Results flagged for a closer look

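Samples far from the rest of their group were looked for in 36 groups of values, and 3 were found, where chance gives about 1 in 20. H2-M3 on C57BL/6J replicate 4 had a log2 intensity of 9.007, below the other 4 arrays of that strain, whose median was 9.233. H2-M3 in JF1/Ms had a strain mean of 9.227, above the other 3 non-domesticus strains, whose median was 8.797. Psmb8 in MRL/MpJ had a strain mean of 10.44, above the other 6 H2k strains, whose median was 9.834. No cause of these values was tested.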

How the results depend on the processing

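The strain variation count stayed at 8 or 9 of 9 genes, the haplotype count at 1 and the C57BLKS/J count at 0 under every alternative tried. The count of 4 by origin was 1 to 5 when each strain was left out, and 4 or 5 under the other alternatives. The count of 77 against C57BL/6J lay between 52 (each array centred on its median) and 99 (quantile normalization), and between 64 and 79 when each array was left out. The count of 24 correlated pairs lay between 18 (without the 4 non-domesticus strains) and 30 (arrays centred), and between 18 and 26 when each strain was left out. Beside these counts, 773 single values kept direction and call, 32 lost and 10 gained the call, and 13 turned sign, none of them past the threshold before or after. Turned signs by origin and haplotype were Tapbp by origin after quantile normalization (0.03435) and B2m between haplotypes with arrays centred (0.003162). Turned correlations after quantile normalization were H2-M3 with B2m (-0.005283), B2m with Tap2 (-0.1556) and B2m with Psmb9 (-0.02257). H2-Q4 with B2m turned with arrays centred (0.02244), without the non-domesticus strains (0.03982) and without JF1/Ms, MSM/Ms and SJL/J (0.1606). H2-Q4 with Tapbp turned in these settings too (0.0623, 0.09901 and 0.3398) and with an offset of 32 (0.001762). The causes were not tested.

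With 1 strain left out at a time, differences by origin ranged from -0.000113 to 0.06942 for B2m and from -0.05068 to 0.075 for Tapbp. Between haplotypes they ranged from -0.04067 to 1.055e-05 for B2m, from -0.008773 to 0.1288 for Psmb8, from -0.01732 to 0.124 for Psmb9 and from -0.08539 to 0.03953 for Nlrc5. With 1 array left out, the C57BLKS/J differences ranged from -0.0149 to 0.05434 for H2-M3, from -0.09008 to 0.001863 for B2m and from -0.06054 to 0.09386 for Tap2.

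With the replicate number as a block, 9 of 9 genes varied between strains (B2m at an adjusted p of 0.0479 in limma), 57 pairs passed against C57BL/6J, none passed in C57BLKS/J, and H2-M3 in C57BLKS/J turned sign (-0.02146). Calls not made under the block were WSB/EiJ Tapbp (adjusted p = 0.0517), CAST/EiJ B2m (0.0595), MRL/MpJ H2-M3 (0.0765) and Tapbp (0.0763), and SJL/J Tap1 (0.0800) and Tapbp (0.116). Same-numbered arrays had no common direction of deviation across strains. Over 630 pairs of strains the correlation of their deviations had a median of 0.0004. It lay between -0.626 and 0.567, with 199 pairs over 0.1. Deviations thus ran together in some pairs of strains and against one another in others. What such arrays share was not tested. No paired analysis was possible because the strain is the replicate in the comparisons by origin and haplotype and in the correlations. Most strains had 2 arrays, and no measure of background was used here, so low signals such as H2-Q4 in JF1/Ms have no stated floor.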
